A study of Homo sapiens with 24 samples.

Results

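Transcripts of 10 enzymes and regulators of pyrimidine and polyamine synthesis were followed in a B-cell lymphoma line treated with reagents directed at MYC. Of the pyrimidine pathway these were CAD, DHODH, UMPS, CTPS1 and TYMS, and of the polyamine pathway ODC1, AZIN1, AMD1, SRM and SMS. They were chosen by gene symbol, and all 10 were found among 61541 genes measured at 48 h and among 19836 genes measured at 72 h. All 10 passed the filter on low values at both times.

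RNA was sequenced from U2932, a human cell line of diffuse large B-cell lymphoma. PNA2, a gamma PNA (peptide nucleic acid, in which bases hang on a peptide-like chain in place of the sugar backbone) directed at MYC, was given at a dose that the labels write as 8 mM, a unit that is in doubt, for 48 h (4 libraries) or 72 h (5 libraries). An siRNA against MYC was delivered at 500 nM by electroporation for 48 h (4 libraries). The PBS-treated controls comprised 6 libraries at 48 h and 5 at 72 h, all labelled wild type. The labels name no electroporated control, so an effect of electroporation and one of the siRNA cannot be told apart, and they name the tissue as bone marrow. For the 4 siRNA libraries the line is entered under names that differ from U2932 in their final digit, although U2932 stands in the treatment text. Extraction is described for 48 h only, also for libraries whose titles and time entries give 72 h, and the titles were followed. The labels do not say whether replicates were separate cultures, so the p-values measure only the spread between these libraries.

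Pyrimidine nucleotides are built from glutamine, bicarbonate and aspartate by the multifunctional protein CAD and by DHODH and UMPS, which yield UMP, after which CTPS1 makes CTP and TYMS makes the thymidine nucleotide used for DNA. Polyamines are small positively charged molecules that dividing cells require: ODC1 makes putrescine, AMD1 supplies the aminopropyl donor, and SRM and SMS make spermidine and spermine. MYC binds DNA with its partner MAX at E-boxes, and CAD and ODC1 are textbook MYC target genes.

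The E-box CACGTG, which reads the same on both strands, was searched in RefSeq promoter windows (GRCh38.p14) of 300 bases, running from 250 bases before to 50 bases after each annotated start. Of the 10 genes 9 had a window and 3 of these held the motif, namely DHODH, SRM and ODC1. AZIN1 had no window. The motif was present in 7.26% of 35116 windows and in a window of 8.77% of 27305 genes. The DHODH window (chr16:72008494-72008793, forward strand) held it 159 bases before the start, and the SRM window (chr1:11059969-11060268, reverse strand) held it 199 bases before the start. These windows are shown because DHODH and SRM were lower with the siRNA, as was AMD1, none of whose 3 windows held the motif. A second ODC1 window (chr2:10447963-10448262, reverse strand) held the motif 29 bases before and 5 bases after its start. It is shown, by a choice made after the values were seen, because ODC1 differed between both reagents. Capitals mark the motif. A match describes these letters only and is no evidence of binding.
DHODH window: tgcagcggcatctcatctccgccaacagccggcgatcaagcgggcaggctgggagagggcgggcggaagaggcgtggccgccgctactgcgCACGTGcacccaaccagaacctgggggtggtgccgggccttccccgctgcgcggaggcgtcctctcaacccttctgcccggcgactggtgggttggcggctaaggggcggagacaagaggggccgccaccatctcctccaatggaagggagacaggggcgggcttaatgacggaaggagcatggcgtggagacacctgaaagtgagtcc
SRM window: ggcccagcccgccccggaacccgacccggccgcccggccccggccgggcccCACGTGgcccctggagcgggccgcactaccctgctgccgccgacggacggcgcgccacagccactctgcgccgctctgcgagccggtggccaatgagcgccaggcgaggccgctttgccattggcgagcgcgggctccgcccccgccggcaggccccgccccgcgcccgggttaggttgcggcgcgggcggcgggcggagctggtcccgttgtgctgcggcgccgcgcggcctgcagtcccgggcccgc
ODC1 second window: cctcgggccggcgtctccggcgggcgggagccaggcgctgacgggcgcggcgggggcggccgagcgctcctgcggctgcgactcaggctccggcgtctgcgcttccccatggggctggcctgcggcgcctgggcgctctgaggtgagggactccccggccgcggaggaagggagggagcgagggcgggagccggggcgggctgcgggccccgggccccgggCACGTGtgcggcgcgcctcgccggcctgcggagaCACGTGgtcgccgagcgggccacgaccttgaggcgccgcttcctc

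The target gene was examined first. At 48 h MYC (ENSG00000136997, GRCh38 chromosome 8, 127735434 to 127741434) stood at normalised values of 7242, 7303, 7952 and 9051 in the libraries labelled PNA2, and at 3599, 3984, 4184 and 3598 in the siRNA libraries. In the 6 PBS libraries MYC ran from 5383 to 7767, with a median of 6921. Every siRNA library lay below every PBS library, whereas MYC transcript in the libraries labelled PNA2 was not lower than in PBS. These libraries are labelled as MYC knockdown, which their transcript level did not show. MYC protein was not measured in these data, so a knockdown of the protein could not be examined. The log2 change of MYC was 0.24 with PNA2 (limma adjusted p = 0.114) and -0.82 with the siRNA (adjusted p = 0.000395), and MYC was higher with PNA2 than with the siRNA (log2 difference 1.06, adjusted p = 3.25e-05). Without PNA2 replicate 2, which stood apart from the other libraries, MYC was called higher with PNA2 than in PBS (0.29, adjusted p = 0.0432, alternatives spanning 0.00955 to 0.941), and the difference from the siRNA was 1.13. At 72 h MYC stood at 2007, 2032, 460, 1966 and 1809 in PNA2 libraries and at 1121, 2321, 2035, 2845 and 826 in PBS libraries. The 72 h groups overlapped (log2 change -0.18, adjusted p = 0.794).

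Values at 48 h summed to 14.9 to 16.03 M per library in PNA2, 12.6 to 16.2 M in siRNA and 11.1 to 14.5 M in PBS libraries, and were scaled to a common library size for all levels given here. At 72 h the recovered reads came to 11.3 to 13.7 M in PNA2 and 8.22 to 13.3 M in PBS libraries. The 48 h libraries fell into sets A and B, which the labels do not name and which were read from tied values: set A held PNA2 replicates 1 and 2, all 4 siRNA libraries and PBS replicates 1, 2 and 4, and set B held the others. Protein-coding transcripts of the mitochondrial genome took 4.30% to 5.78% of the total in PNA2, 1.89% to 2.16% in siRNA and 1.38% to 2.92% in PBS libraries at 48 h. At 72 h they took 6.15% to 8.30% in PNA2 against 3.96% to 4.63% in PBS libraries. Their part in the results was not tested. All 10 B cell markers examined had a mean of at least 10 in every group, while CD3D, CD2 and GNLY of the 10 T and NK cell markers were at 0 in every group. The deposited values of the T and NK markers summed to 643 to 799.8 in PNA2, 425 to 521 in siRNA and 437 to 752 in PBS libraries at 48 h, most of it TRBC2. At 72 h TRBC2 had no entry, and the 9 markers found summed to at most 63.7 in any library, so the sums of both times are not comparable. The 9 myeloid markers summed to at most 23.7 at 48 h and 45.02 at 72 h, where CD14 had a mean above 10 in both groups, and FCGR3A, S100A8, S100A9 and ELANE were at 0 throughout. Those of stroma and epithelium, also 9, summed to 235 to 515 in PNA2 libraries at 48 h. The 48 h sums were 259 to 368 in siRNA and 188 to 283 in PBS libraries. At 72 h they were 140 to 191 in PNA2 and 127 to 164 in PBS libraries. EPCAM had the highest mean of these markers in every group, and at 48 h it reached 239 in PNA2 and 236 in PBS libraries. Collagens reached higher in PNA2 than in PBS libraries at 48 h. The highest values were 153 and 18.2 for COL1A1, 48.8 and 1.91 for COL1A2 and 27.5 and 0.986 for COL3A1. The 8 erythroid and megakaryocyte markers summed to at most 10.02 in any library. The part of other cell types in the results was not tested.

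PNA2 replicate 2 at 48 h stood apart for these enzymes. It was the lowest of the 4 PNA2 libraries for all 10 genes, while it was the lowest for 37.6% of the 14136 genes tested. For 6 of the 10, it was the lowest of all 14 libraries, against 24.4% of all genes. The 48 h calls of the enzymes that involve PNA2 are therefore also given without it, and those of other genes where leaving it out ended the call or moved the value by over 1.5 times. The library was singled out after the values were seen, from these same enzymes. Higher PNA2 values of the enzymes without it are thus built in and are no separate support. In bulk RNA, fewer cells of a type and less RNA per cell cannot be told apart.

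Per base of transcript, the enzymes spanned a wide range of levels. In PBS libraries at 48 h the level per length, a value divided by exon length and scaled as TPM are, was highest for ODC1 at 851 ± 65.0 (SD, n = 6) and lowest for DHODH at 10.97 ± 1.79. Between them came SRM at 467 ± 55.2, TYMS at 459 ± 22.1, SMS at 169 ± 16.8, CAD at 147 ± 14.5, AZIN1 at 96.3 ± 8.75, AMD1 at 64.8 ± 11.9, CTPS1 at 44.7 ± 4.25 and UMPS at 32.7 ± 1.54. SRM overlapped TYMS, SMS overlapped CAD and AMD1 overlapped CTPS1, whereas the other neighbours in this order did not overlap. At 72 h, in a table normalised separately, ODC1 again had the highest level in PBS libraries (727 ± 32.8, n = 5) and DHODH the lowest (10.7 ± 2.05).

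A gene was called changed when its adjusted p in limma, with Benjamini-Hochberg correction across every gene that was tested, was below 0.05. With PNA2 at 48 h, CTPS1 was the 1 enzyme called (lower), against a background of 16.2% of all genes (8.05% lower), and for none of the 10 did the groups fail to overlap (background 10.1%). With the siRNA 3 of the 10 were called lower, DHODH, SRM and AMD1, against a background of 17.3% (8.55% lower). In that comparison the groups did not overlap for 1, AZIN1 (background 15.5%). Between the reagents, ODC1, DHODH and SRM were higher and AZIN1 was lower with PNA2 than with the siRNA, 4 of 10 against a background of 23.5%, and the groups did not overlap for 3, UMPS, ODC1 and AZIN1 (background 27.5%). With PNA2 at 72 h, ODC1 rose and AZIN1, UMPS and CTPS1 fell, again 4 of 10 against a background of 23.8%. There the groups did not overlap for 4, CAD, CTPS1, ODC1 and AZIN1 (background 19.2%). Whether these shares set the enzymes apart from other genes was not tested, as 10 genes are few, and the direction differed between enzymes. The median log2 change of the 10 was -0.13 with PNA2 at 48 h, -0.15 with the siRNA and -0.05 with PNA2 at 72 h, where the medians of all genes were -0.001, -0.013 and -0.005. The PNA2 and siRNA comparisons with PBS at 48 h share their control libraries. Signs depend on the scale: when each library was instead scaled by its total of value per exon length, an alternative added after the values were seen, the median of all genes moved to -0.20 with PNA2 at 48 h, 0.06 with the siRNA, -0.27 between the reagents and -0.35 at 72 h, and changes on that scale are read relative to it. On it 8, 3, 4 and 6 of the enzymes were called in the same order, against 34.4%, 14.8%, 38.3% and 50.4% of all genes.

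**Figure D1:**
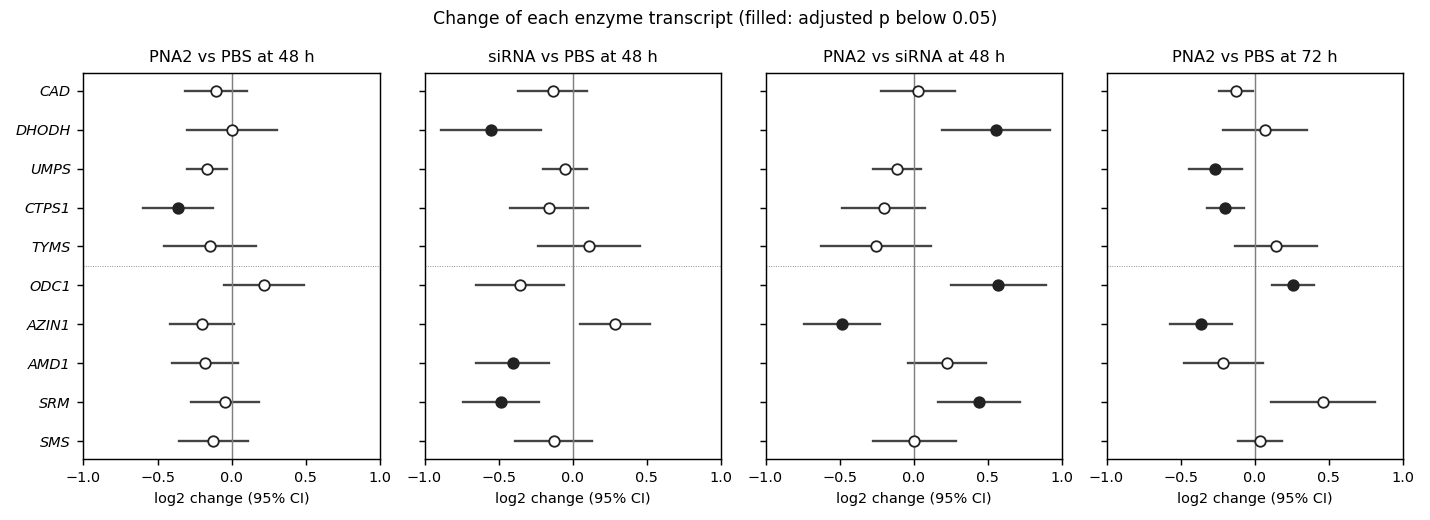
Log2 change of each enzyme transcript with its 95% confidence interval in the 4 comparisons, pyrimidine enzymes above the dotted line and polyamine enzymes below it; filled points have an adjusted p below 0.05. With PNA2 at 72 h ODC1 lies at 0.26 (at -0.09 when scaled by the per-length total) and AZIN1 at -0.36, and between PNA2 and siRNA at 48 h these genes lie at 0.57 and -0.48.

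CAD (ENSG00000084774, chromosome 2, 27217390 to 27243943, forward strand) carries the enzyme activities for the opening steps of pyrimidine synthesis in one protein. At 48 h its normalised values, in order of replicate number, were 4375, 3555, 5067 and 4879 in PNA2 libraries and 4267, 4387, 4535 and 4310 in siRNA libraries. PBS libraries ran from 4211 to 5506, with a median of 4764, so that both treated groups overlapped PBS. The log2 change of CAD was -0.11 with PNA2 (SE 0.10, limma adjusted p = 0.488) and -0.14 with the siRNA (95% CI -0.37 to 0.10, adjusted p = 0.430). The PNA2 value took opposite signs in the library sets, -0.40 in set A (adjusted p = 0.0274) and 0.19 in set B (adjusted p = 0.125, alternatives spanning 0.0162 to 0.884). At 72 h CAD stood at 2622, 2425, 2450, 2664 and 2497 in PNA2 libraries and at 2775, 2776, 2755, 2760 and 2757 in PBS libraries. Every PNA2 library lay below every PBS library, and the PBS libraries were tight, with an SD of 10.2. The 72 h log2 change of -0.13 (SE 0.05) nevertheless did not pass correction over all genes (adjusted p = 0.0944), although the exact two-sided permutation test gave p = 0.00794, the smallest that 5 against 5 libraries allow.

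DHODH (ENSG00000102967, chromosome 16, 72008588 to 72027664, forward strand), the mitochondrial enzyme that makes orotate and the target of leflunomide and brequinar, was lower with the siRNA. The 48 h values were 346, 212, 326 and 300 in PNA2 libraries and 235, 215, 188 and 205 in siRNA libraries. In PBS libraries DHODH ran from 233 to 364, with a median of 293. Of the siRNA libraries only replicate 1 reached the lowest PBS library, whereas PNA2 libraries spread across the PBS range apart from replicate 2. DHODH fell by 0.55 on the log2 scale with the siRNA (SE 0.16, limma adjusted p = 0.0265), and was 0.56 higher with PNA2 than with the siRNA (SE 0.17, adjusted p = 0.0276). The siRNA change was -0.65 within set A (adjusted p = 0.0205), while the PNA2 to siRNA difference was 0.34 within set A (adjusted p = 0.197). Without PNA2 replicate 2 that difference was 0.85 (adjusted p = 5.79e-05, with at most 0.237 in any alternative). Both calls were close to the threshold: the siRNA call was lost without PBS replicate 1, 2 or 4 or siRNA replicate 2, 3 or 4, with adjusted p of 0.0564 to 0.123, and the PNA2 to siRNA call without PBS replicate 1, PNA2 replicate 1, 3 or 4 or siRNA replicate 2, 3 or 4. Over all alternatives the siRNA change of DHODH stayed between -0.68 and -0.25 (adjusted p of 0.00016 to 0.291). Against PBS, PNA2 gave a log2 change of 0.00 at 48 h (95% CI -0.30 to 0.31) and 0.07 at 72 h (95% CI -0.21 to 0.35). DHODH stood at 229, 246, 248, 220 and 227 in PNA2 libraries and at 192, 269, 218, 177 and 274 in PBS libraries at 72 h, and the PBS libraries were the more spread.

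UMPS (ENSG00000114491, chromosome 3, 124730366 to 124749273, forward strand) completes UMP. At 48 h UMPS stood at 837, 806, 891 and 874 in PNA2 libraries and at 922, 904, 981 and 920 in siRNA libraries, against a PBS range of 856 to 1014 with a median of 974. The 4 PNA2 libraries lay below 5 of the 6 PBS libraries. The log2 change of UMPS with PNA2 was -0.17 (SE 0.06) and missed the threshold (limma adjusted p = 0.0793), and with the siRNA it was -0.06 (95% CI -0.20 to 0.09, adjusted p = 0.634). At 72 h UMPS stood at 581, 543, 620, 679 and 596 in PNA2 libraries and at 650, 765, 692, 778 and 742 in PBS libraries. The groups overlapped in PNA2 replicate 4 and PBS replicate 1 alone. UMPS fell by 0.27 at 72 h (SE 0.08, adjusted p = 0.0373). This call was close to the threshold and was lost on leaving out any of 7 of the 10 libraries in turn, PBS replicates 2, 3, 4 and 5 and PNA2 replicates 1, 2 and 5, with log2 changes of -0.31 to -0.23 over all 10. Adjusted p for UMPS at 72 h lay between 0.000777 and 0.0911 in all alternatives run.

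CTPS1 (ENSG00000171793, chromosome 1, 40979335 to 41012565, forward strand), the CTP synthase on which lymphocyte proliferation depends, was lower with PNA2 at both times. At 48 h its values were 1691, 1119, 1724 and 1729 in PNA2 libraries and 1841, 1784, 1682 and 1756 in siRNA libraries. PBS libraries ran from 1686 to 2160, with a median of 2006. The lowest PBS library fell among the PNA2 values, and the next PBS library, at 1932, lay above all libraries of both treated groups. CTPS1 fell by 0.36 on the log2 scale with PNA2 at 48 h, or by 22.2% (SE 0.11, limma adjusted p = 0.0357, exact two-sided permutation p within sets 0.03). The change was -0.19 without PNA2 replicate 2 (adjusted p = 0.0478), and it was -0.62 in set A (adjusted p = 0.0221) and -0.10 in set B (adjusted p = 0.491, alternatives spanning 0.000634 to 0.491). The 48 h call was lost on leaving out PBS replicate 1, 2 or 4 or unnumbered PBS column 6, with adjusted p of 0.0543 to 0.0795.

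At 72 h CTPS1 stood at 1585, 1638, 1646, 1480 and 1622 in PNA2 libraries and at 1816, 1779, 1795, 1907 and 1848 in PBS libraries. All 5 PNA2 libraries lay below all 5 PBS libraries. CTPS1 fell by 0.20 at 72 h (SE 0.06, limma adjusted p = 0.0263, exact two-sided permutation p = 0.00794). The call was lost without PBS replicate 1, 4 or 5 or PNA2 replicate 1, with adjusted p of 0.0509 to 0.0653. With the siRNA the log2 change of CTPS1 was -0.16 (95% CI -0.42 to 0.10, adjusted p = 0.400), and the PNA2 to siRNA difference of -0.20 was not called (adjusted p = 0.296).

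TYMS (ENSG00000176890, chromosome 18, 657604 to 673578, forward strand), the thymidylate synthase and target of fluorouracil, was not called in any comparison on the scale used here. Normalised TYMS values at 48 h were 5023, 2437, 4377 and 4569 in PNA2 libraries, 4813, 4402, 4422 and 4654 in siRNA libraries and between 3971 and 4753 in PBS libraries, with a PBS median of 4403. PNA2 replicate 2 was far below every other library. The log2 change of TYMS was -0.14 with PNA2 (limma adjusted p = 0.525) and 0.11 without that replicate, and it was 0.11 with the siRNA (adjusted p = 0.685). At 72 h TYMS stood at 3879, 3598, 4527, 3184 and 3303 in PNA2 libraries and at 3299, 3053, 3018, 4502 and 2949 in PBS libraries (log2 change 0.14, adjusted p = 0.433). PBS replicate 4 stood above the other PBS libraries. TYMS shares 967 exon bases with ENOSF1 on the opposite strand, and the sources used here do not say whether counting used strand, so its values are uncertain. ENOSF1 itself was lower with PNA2 at 72 h, at 531, 410, 517, 435 and 579 in PNA2 libraries against 887, 907, 891, 827 and 939 in PBS libraries (log2 change -0.86, adjusted p = 0.00045).

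**Figure D2:**
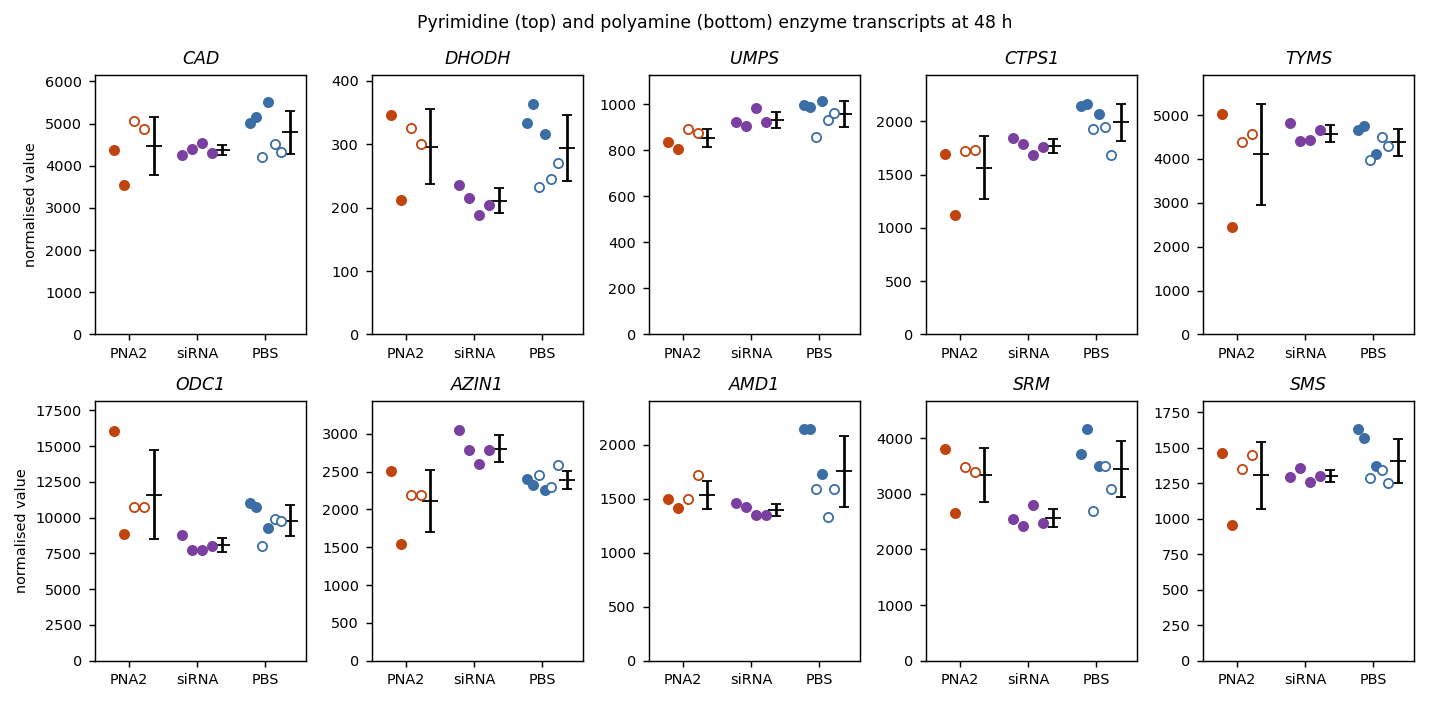
Normalised value of each enzyme transcript in every 48 h library, with PNA2, siRNA and PBS from left to right; filled points are library set A, open points set B, and the bar gives the mean ± SD. ODC1 reaches 16084 in 1 PNA2 library and stays at or below 8790 in the siRNA libraries, and PNA2 replicate 2, the lowest PNA2 point in each panel, lies at 1119 for CTPS1.

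ODC1 (ENSG00000115758, chromosome 2, 10439968 to 10448504, reverse strand), the rate-limiting enzyme of polyamine synthesis, separated both reagents. The 48 h values were 16084, 8881, 10715 and 10758 in PNA2 libraries and 8790, 7754, 7761 and 8000 in siRNA libraries. In PBS libraries ODC1 ran from 8007 to 11013, with a median of 9839. Every PNA2 library lay above every siRNA library, by a narrow margin for PNA2 replicate 2, while both groups overlapped PBS. ODC1 was 0.57 higher on the log2 scale with PNA2 than with the siRNA (SE 0.15, limma adjusted p = 0.0123). The difference was 0.54 within set A (adjusted p = 0.0656), 0.32 without PNA2 replicate 1 (adjusted p = 0.0807) and 0.80 without PNA2 replicate 2 (adjusted p = 3.13e-05, with at most 0.0838 in any alternative). Against PBS, ODC1 was not called with PNA2 (log2 change 0.22, SE 0.13, adjusted p = 0.248) or with the siRNA (log2 change -0.35, SE 0.14, adjusted p = 0.0948). Without PNA2 replicate 2 both comparisons with PBS were called, at 0.38 with PNA2 (adjusted p = 0.00572) and -0.42 with the siRNA (adjusted p = 0.00174), while adjusted p over the alternatives reached 0.918 with PNA2 and 0.816 with the siRNA. The siRNA comparison contains no PNA2 library, so its call changed only through the fit shared by all 48 h libraries.

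At 72 h ODC1 stood at 7150, 8066, 8627, 7347 and 8286 in PNA2 libraries and at 6235, 6511, 6926, 6477 and 6846 in PBS libraries. All 5 PNA2 libraries lay above all 5 PBS libraries. ODC1 rose by 0.26 on the log2 scale, or to 1.19-fold (SE 0.06, limma adjusted p = 0.0153, exact two-sided permutation p = 0.00794), and the call held without any 1 library. Under quantile normalisation the change was 0.10 and was not called (adjusted p = 0.228, alternatives spanning 0.00295 to 0.264). The direction turned on the per-length scale, where ODC1 averaged 685 ± 51.004 in PNA2 and 727 ± 32.8 in PBS libraries (SD, n = 5 each): with values scaled by the per-length total the change was -0.09 and was not called (adjusted p = 0.264). The median of all genes was then at -0.35, and ODC1 lay 0.26 above it.

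AZIN1 (ENSG00000155096, chromosome 8, 102826357 to 102893864, reverse strand) is an inactive relative of ornithine decarboxylase that binds antizyme and so protects the enzyme from breakdown. On the scale used here, the log2 change of AZIN1 had the opposite sign to that of ODC1 in all 4 comparisons. With values scaled by the per-length total, both were negative at 72 h (-0.09 for ODC1 and -0.71 for AZIN1). At 48 h AZIN1 stood at 2507, 1538, 2195 and 2188 in PNA2 libraries and at 3046, 2788, 2601 and 2779 in siRNA libraries. PBS libraries ran from 2255 to 2582, with a median of 2365. All 4 siRNA libraries lay above all PBS and PNA2 libraries. AZIN1 was 0.48 lower with PNA2 than with the siRNA (SE 0.12, limma adjusted p = 0.00877), with -0.54 in set A (adjusted p = 0.0344) and -0.28 without PNA2 replicate 2 (adjusted p = 0.0151, alternatives spanning 7.47e-05 to 0.066). Against PBS, the log2 change was -0.20 with PNA2 (adjusted p = 0.184) and 0.28 with the siRNA (SE 0.11, adjusted p = 0.0914), neither of which was called. The siRNA change passed the threshold at 0.36 without PNA2 replicate 1 (adjusted p = 0.011) and at 0.23 without PNA2 replicate 2 (adjusted p = 0.0154). Neither library is in that comparison, so these calls changed only through the shared fit. The PNA2 change passed at -0.33 without PNA2 replicate 1 (adjusted p = 0.0163) and at -0.40 when scaled by the per-length total (adjusted p = 0.0027). Over the alternatives adjusted p reached 0.995 with PNA2 and 0.216 with the siRNA.

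At 72 h AZIN1 stood at 1634, 1617, 1362, 1895 and 1945 in PNA2 libraries and at 2110, 2003, 2107, 2324 and 2233 in PBS libraries. The groups did not overlap. AZIN1 fell by 0.36 on the log2 scale, or by 22.1% (SE 0.10, limma adjusted p = 0.0191, exact two-sided permutation p = 0.00794), and the call held in all 19 alternatives run at 72 h (adjusted p of 0.000927 to 0.0492). An antisense gene, AZIN1-AS1, shares 344 exon bases with AZIN1, whose values are uncertain to that extent.

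The ratio of the ODC1 to the AZIN1 value within a library, one of 3 ratios computed, chosen after the values were seen and given with no test, set these genes side by side. At 48 h it averaged 5.50 ± 0.738 in PNA2 (SD, n = 4), 2.88 ± 0.0832 in siRNA (n = 4) and 4.11 ± 0.519 in PBS libraries (n = 6). No 2 of these 3 groups overlapped, with ranges of 4.88 to 6.42 in PNA2, 2.78 to 2.98 in siRNA and 3.26 to 4.62 in PBS libraries. At 72 h the ratio averaged 4.77 ± 0.963 in PNA2 (n = 5) and 3.07 ± 0.208 in PBS libraries (n = 5), and the ranges of 3.88 to 6.34 and 2.79 to 3.29 did not overlap. The ratio of ODC1 to CTPS1 also kept PNA2 and PBS libraries apart, at 6.22 to 9.51 in PNA2 against 4.14 to 5.81 in PBS libraries at 48 h and 4.51 to 5.24 against 3.40 to 3.86 at 72 h, but not the siRNA (4.35 to 4.77) from PBS. The ratio of SRM to AMD1 overlapped at both times, at 1.89 to 2.54 in PNA2, 1.6998 to 2.07 in siRNA and 1.69 to 2.62 in PBS libraries at 48 h and at 1.18 to 3.51 in PNA2 and 1.26 to 1.72 in PBS libraries at 72 h. How many ratios of other gene pairs keep the groups apart was not tested.

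**Figure D3:**
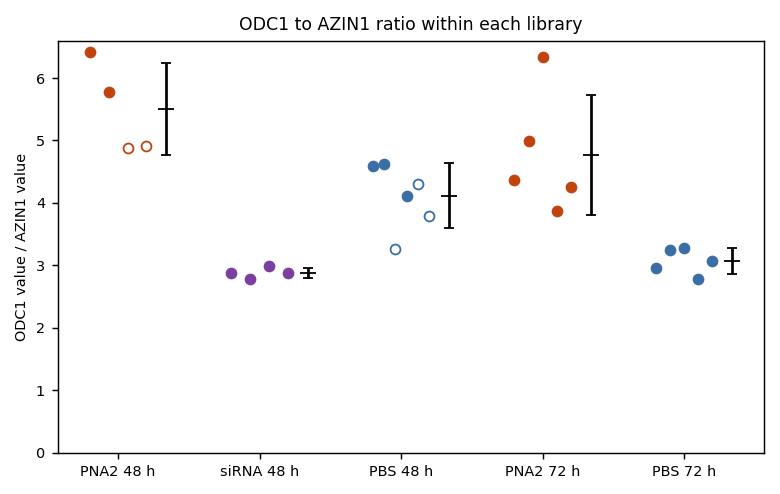
Ratio of the ODC1 to the AZIN1 value in every library, by group; points are libraries (at 48 h filled for set A and open for set B) and bars are mean ± SD. At 48 h the PNA2 libraries lie at 4.88 or above, the siRNA libraries at 2.98 or below and the PBS libraries between.

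AMD1 (ENSG00000123505, chromosome 6, 110874770 to 110895713, forward strand), which decarboxylates S-adenosylmethionine to the aminopropyl donor, was lower with the siRNA. Normalised AMD1 values at 48 h were 1500, 1411, 1501 and 1718 in PNA2 libraries and 1463, 1429, 1347 and 1355 in siRNA libraries. PBS libraries ran from 1331 to 2149 with a median of 1663, and 1 PBS library lay below all siRNA libraries. AMD1 fell by 0.40 with the siRNA (SE 0.12, limma adjusted p = 0.0257), and by 0.49 within set A (adjusted p = 0.00561). The call was lost without PBS replicate 1 or 2 or siRNA replicate 2, 3 or 4, with adjusted p of 0.0545 to 0.134, and over all alternatives the adjusted p ranged from 0.000333 to 0.621. With PNA2 the log2 change was -0.18 at 48 h (adjusted p = 0.248), where it was -0.45 in set A (adjusted p = 0.020) and 0.10 in set B, and -0.21 at 72 h (adjusted p = 0.223). AMD1 stood at 1143, 897, 1060, 1477 and 1239 in PNA2 libraries and at 1324, 1222, 1283, 1555 and 1287 in PBS libraries at 72 h. AMD1 has 4 annotated processed pseudogenes, between which and AMD1 counting could split reads.

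SRM (ENSG00000116649, chromosome 1, 11054584 to 11060024, reverse strand), the spermidine synthase, was lower with the siRNA as well. The 48 h values were 3808, 2662, 3482 and 3392 in PNA2 libraries and 2539, 2429, 2792 and 2475 in siRNA libraries. In PBS libraries SRM ran from 2689 to 4157, with a median of 3497. Of the siRNA libraries only replicate 3 lay above the lowest PBS library. SRM fell by 0.48 on the log2 scale with the siRNA (SE 0.12, limma adjusted p = 0.0132) and by 0.53 within set A (adjusted p = 0.0133), and the call was lost without PBS replicate 1 or 2 (adjusted p = 0.0514 and 0.0725, alternatives spanning 7.13e-05 to 0.272). SRM was 0.44 higher with PNA2 than with the siRNA (SE 0.13, adjusted p = 0.0225), with 0.29 in set A (adjusted p = 0.133) and 0.64 without PNA2 replicate 2 (adjusted p = 7e-05). This call was lost without PNA2 replicate 1, 3 or 4 or siRNA replicate 2 or 4, with adjusted p of 0.0501 to 0.0997 (at most 0.22 in any alternative).

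At 72 h SRM stood at 2898, 3148, 3493, 1737 and 2511 in PNA2 libraries and at 2083, 1807, 2209, 1964 and 1726 in PBS libraries. Of the PNA2 libraries 4 lay above all PBS libraries and replicate 4 lay near the bottom of the PBS range. The log2 change of SRM was 0.46 (SE 0.16, limma adjusted p = 0.0581) and was not called. Without PNA2 replicate 4 it was 0.62 (adjusted p = 0.00303), and on the recovered reads it was 0.48 by edgeR (adjusted p = 0.042) and 0.49 by DESeq2 (adjusted p = 0.0142, alternatives spanning 0.00303 to 0.495). With PNA2 at 48 h the change against PBS was -0.04 (95% CI -0.27 to 0.19). SRM has 2 annotated processed pseudogenes.

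SMS (ENSG00000102172, chromosome X, 21940573 to 21994835, forward strand), the spermine synthase, was not called in any of the 4 comparisons on the scale used here. At 48 h SMS stood at 1463, 958, 1354 and 1451 in PNA2 libraries, at 1294, 1360, 1258 and 1303 in siRNA libraries and between 1255 and 1632 in PBS libraries, with a PBS median of 1359. The log2 change of SMS was -0.12 with PNA2 (95% CI -0.36 to 0.11) and -0.13 with the siRNA (95% CI -0.39 to 0.13). At 72 h SMS stood at 1112, 1038, 1229, 1140 and 1208 in PNA2 libraries and at 1071, 1114, 1159, 1074 and 1168 in PBS libraries. The 72 h log2 change of SMS was 0.03 (95% CI -0.11 to 0.18), and the groups overlapped.

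**Figure D4:**
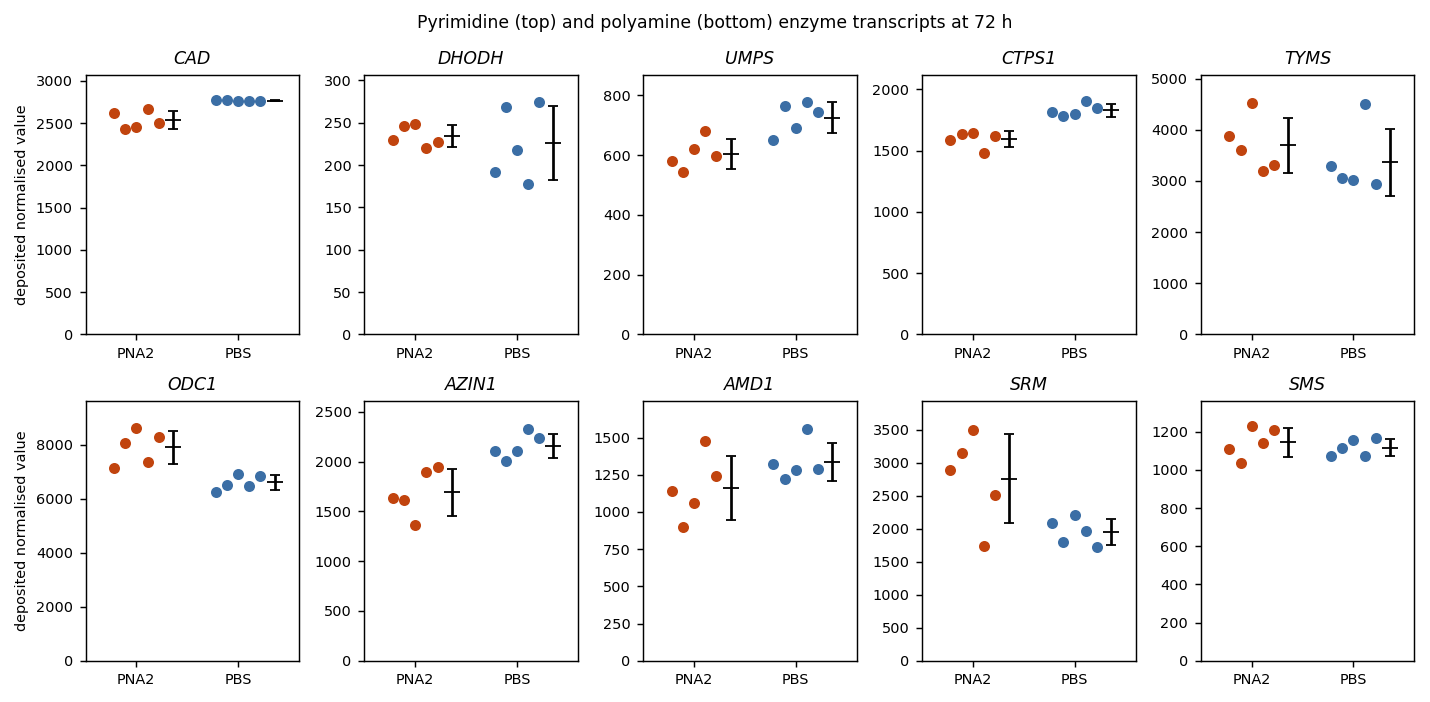
Deposited normalised value of each enzyme transcript in every 72 h library, PNA2 left of PBS, with mean ± SD as bars. For CAD, CTPS1, ODC1 and AZIN1 the groups do not overlap, with ODC1 on this scale at 7150 or above in PNA2 libraries and at 6926 or below in PBS libraries.

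The library sets gave different pictures of PNA2 at 48 h. In set A, which holds PNA2 replicate 2, 4 of the 10 enzymes were called, CAD, UMPS, CTPS1 and AMD1, all lower, where 13.5% of 13700 genes were called (7.62% lower). In set B none was called, against 12.6% of 13090 genes, and 6 of the 10, CAD, DHODH, TYMS, AMD1, SRM and SMS, had a value of the opposite sign to that in set A. ODC1 gave 0.22 in set A and 0.23 in set B, and AZIN1 gave -0.24 and -0.16, so that these genes kept their direction in both sets without a call in either. All 4 siRNA libraries are in set A, where the PBS mean was higher than in set B for every enzyme but AZIN1 (2328 and 2443). This held for MYC as well (7248 and 6176). For the enzymes called with the siRNA the PBS means in sets A and B were 3789 and 3092 (SRM), 2009 and 1506 (AMD1) and 338 and 250 (DHODH).

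**Figure D5:**
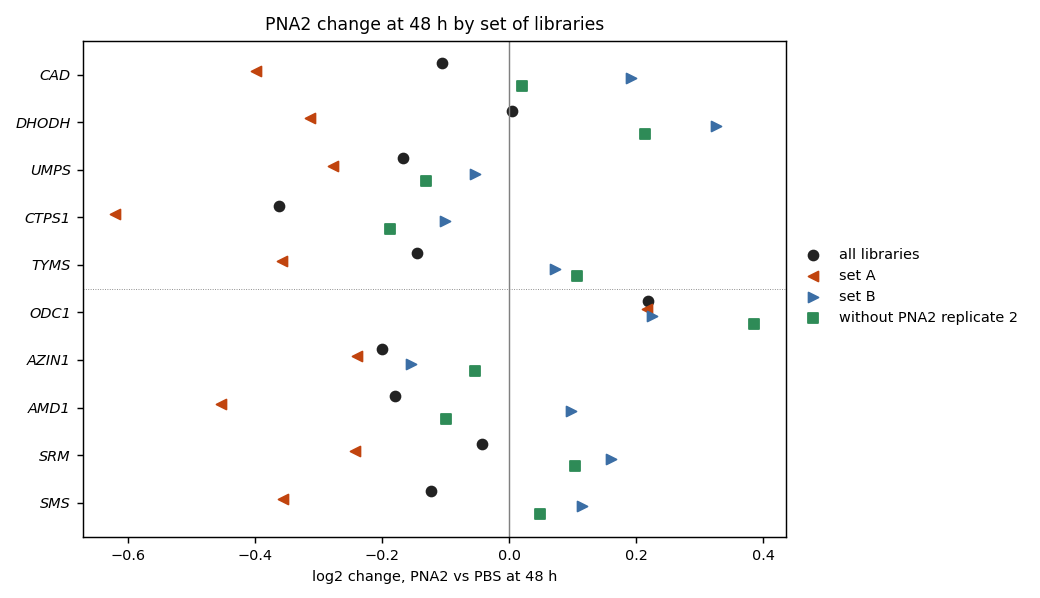
Log2 change of each enzyme transcript with PNA2 against PBS at 48 h in all libraries, in set A, in set B and without PNA2 replicate 2. CAD lies at -0.40 in set A and 0.19 in set B, while ODC1 lies at 0.22 and 0.23.

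Other genes of pyrimidine metabolism were read from a list of 35, of which 30 were tested at 48 h and 31 at 72 h. Those called numbered 2 with PNA2 at 48 h, 7 with the siRNA, 9 between the reagents and 6 with PNA2 at 72 h. In the same order the backgrounds were 16.2%, 17.3%, 23.5% and 23.8% of all genes. Whether these counts set the list apart from other genes was not tested. With PNA2 at 48 h, 2 rose and none fell: NME4, a mitochondrial nucleoside diphosphate kinase (log2 change 0.59, limma adjusted p = 0.0126), and DCTD, the dCMP deaminase that feeds TYMS (0.42, adjusted p = 0.00712). With the siRNA the same pair fell, NME4 by 0.72 (adjusted p = 0.00719) and DCTD by 0.65 (adjusted p = 0.000935), among 6 that fell and 1 that rose. DCTD averaged 866 ± 143 in PNA2 (SD, n = 4), 438 ± 7.76 in siRNA (n = 4) and 646 ± 71.3 in PBS libraries (n = 6), and each PNA2 library lay above each siRNA library. The others with the largest changes were the nucleoside transporter SLC29A1 (-0.53), the thymidylate kinase DTYMK (-0.33), NME2 (-1.20) and TYMP (1.40). Their calls held in 22, 18, 27 and 15 of 27 alternatives, in that order. NME2 shares a readthrough transcript with NME1 and was low, at 8.55 to 21.2 in siRNA and 28.6 to 41.8 in PBS libraries. TYMP was low as well, at 24.4 to 47.0 in siRNA and 8.06 to 38.4 in PBS libraries, so both are uncertain.

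Between PNA2 and the siRNA 3 pyrimidine genes were higher, NME4 (1.32), DCTD (1.06) and UCKL1 (0.58), and 6 were lower, with RRM2B, a ribonucleotide reductase subunit (-0.95, limma adjusted p = 0.00568), the thymidine kinase TK1 (-0.87, adjusted p = 0.0139) and the dNTP hydrolase SAMHD1 (-0.86, adjusted p = 0.0135) changed most. Their values were low in PNA2 replicate 2: without it the differences were -0.50 for RRM2B (adjusted p = 0.000738), -0.39 for TK1 (adjusted p = 0.0077) and -0.37 for SAMHD1 (adjusted p = 0.00213), each still called, and 4 of the 9 differences moved by over 1.5 times. CTPS2 was the fourth, at -0.40 with that library and -0.16 without it, where it was not called (adjusted p = 0.137, alternatives spanning 0.000483 to 0.137). Over the alternatives the highest adjusted p was 0.0265 for RRM2B, 0.0752 for TK1 and 0.0567 for SAMHD1. At 72 h 5 rose with PNA2 and 1 fell. Those that rose were NT5M (0.81), NME4 (0.55), TK1 (0.45), the dUTPase DUT (0.33) and DCTD (0.32), and RRM2B fell by 0.39 (adjusted p = 0.0467). These calls held in 11, 18, 18, 18, 12 and 10 of 19 alternatives, in that order. When scaled by the per-length total, DUT (-0.016) and DCTD (-0.022) turned and were not called, while the median of all genes stood at -0.35. DUT averaged 1470 ± 63.2 in PNA2 and 1172 ± 98.3 in PBS libraries at 72 h (SD, n = 5 each).

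Of 25 other polyamine genes 20 were tested at each time. Those called numbered 4 with PNA2 at 48 h, 5 with the siRNA, 8 between the reagents and 8 with PNA2 at 72 h. In the same order the backgrounds were 16.2%, 17.3%, 23.5% and 23.8% of all genes. Whether these counts set the list apart from other genes was not tested. With PNA2 at 48 h 1 rose, AGMAT, annotated as agmatinase (0.77, limma adjusted p = 0.00786), and 3 fell: MAT2A, which makes S-adenosylmethionine (-0.41, adjusted p = 0.00376), and DHPS (-0.73, adjusted p = 0.0286) and DOHH (-0.55, adjusted p = 0.00262), which turn a lysine of EIF5A into hypusine with spermidine as donor. These PNA2 calls held in 26 (AGMAT), 25 (MAT2A), 18 (DHPS) and 25 (DOHH) of 28 alternatives. With the siRNA none rose and 5 fell, MTAP (-0.52), MAT2A (-0.51), AHCY (-0.38), the antizyme OAZ2 (-0.28) and the arginine transporter SLC7A1 (-0.27). Of 27 alternatives the siRNA calls held in 25 for MTAP and MAT2A and in 23 for AHCY. Those of OAZ2 and SLC7A1 held in only 12 each, with changes reaching 0.0079 and 0.0099 (limma adjusted p up to 0.972 and 0.962). MAT2A averaged 4887 ± 852 in PNA2 (SD, n = 4), 4754 ± 48.7 in siRNA (n = 4) and 6432 ± 393 in PBS libraries (n = 6) at 48 h. MAT2A was called lower in each of the 3 comparisons with PBS.

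Between PNA2 and the siRNA 7 polyamine genes were higher and DOHH was lower (-0.63, limma adjusted p = 0.0017). The largest differences among the 7 were AGMAT (0.81), EIF5A2 (0.69), SLC18B1 (0.65), SLC7A1 (0.39) and OAZ2 (0.39). Without PNA2 replicate 2, SLC18B1 was at 0.36 and no longer called (adjusted p = 0.206, alternatives spanning 0.0175 to 0.221). At 72 h 7 rose with PNA2 and 1, MAT2A, fell by 0.67 (adjusted p = 0.000336), with 4053 ± 225 in PNA2 and 6475 ± 629 in PBS libraries (SD, n = 5 each). Those with the largest increases were AGMAT (0.78), OAZ1 (0.48, adjusted p = 0.00506), SLC3A2 (0.30), MAT2B (0.29) and ATP13A2, a lysosomal polyamine exporter (0.29). Their calls held in 13, 18, 7, 18 and 13 of 19 alternatives, in that order, and that of MAT2A in all 19. Of these genes SLC3A2 (-0.043), MAT2B (-0.056) and ATP13A2 (-0.056) turned and were not called when scaled by the per-length total. OAZ1, the antizyme that binds ornithine decarboxylase for degradation, averaged 8915 ± 1404 in PNA2 and 6346 ± 169 in PBS libraries.

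The genes most like CAD and ODC1 across the libraries were ranked by the root mean square difference of log2 values, each gene centred on its PBS mean. Over 14 libraries and 14136 genes at 48 h, ACTN4 (0.0532) and SF3A1 (0.0541) were among the nearest to CAD, and SNRPG (0.0847), UBE2C (0.0942) and HMGB3 (0.0986) were nearest to ODC1. Over 10 libraries and 11985 genes at 72 h, FIP1L1 (0.0445), MCM3AP (0.0447) and SART3 (0.0478) were nearest to CAD, and ATP5F1 (0.0524), LSM14B (0.0532) and XPNPEP1 (0.0578) to ODC1. None of the genes named here at 48 h was among those named at 72 h.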

How the data were processed

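Gene-level RNA-seq tables of 24 libraries were used. The submitters' processing notes list GRCh38, HTSeq 0.11.0, HISAT2 2.2.1, DESeq2, Trimmomatic and SAMtools 1.7, and use of strand in counting is not given in the sources used here. In the 72 h table the authors deposited normalised signal: read counts over one size factor for each library (0.730 to 1.19). Whole reads were recovered for 100% of values at a tolerance of 0.01. The 48 h values, as deposited, are of another unit that the sources used here do not name: values of the tested genes are mostly not whole, and values below 0 occur in 5099 genes. Such values can come from adjusting read counts per gene and library set, but whether the authors did so was not tested. All siRNA libraries are in set A, so values within set A are also given. The sets were read from 6552 genes with means of 1 to 20, in which library pairs shared a value in 9.19% to 23.1% of genes within a set and in 0% between sets. Of 6 PBS columns at 48 h, 2 share a header and are called by their column, 6 and 7.

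Values below 0 were set to 0 and 48 h values were divided by a TMM library scale (edgeR 4.0.16), with 48 h levels given on that scale. Genes with a value of at least 10 in 4 (48 h) or 5 (72 h) libraries were tested, 14136 and 11985 genes, after 18 repeated gene IDs at 0 were left out. limma 3.58.1 (R 4.3.3) was fitted with a mean-variance trend to log2(value + 1), which understates changes of low genes, with group and, at 48 h, library set. The deposited symbol of AMD1 was altered in both tables, and the gene was matched by its ID. Positions are from GENCODE 29. The code was tested on simulated data. Exact permutation tests were two-sided. The enzymes, the lists of other genes and the rule for naming at most 6 called genes per list and comparison were chosen with earlier results of these data known. The 41 alternatives include other scalings, no set term, no filter, other pseudocounts, edgeR and DESeq2 1.42.0 on the recovered reads, single sets, a replicate block and leaving out each library. One gene near CAD at 48 h is not reported here.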

Additional observations from a re-analysis of the deposited data

Results flagged for a closer look

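CTPS1 stood at 1119 in PNA2 replicate 2 at 48 h, far below the other 3 PNA2 libraries, the nearest of which was at 1691. The gap made up 0.937 of the range of the group. Without this library the log2 change of CTPS1 with PNA2 was -0.19 in place of -0.36 and was still called (limma adjusted p = 0.0478).

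TYMS stood at 4502 in PBS replicate 4 at 72 h, far above the other 4 PBS libraries, the nearest of which was at 3299, a gap of 0.774 of the range. The outlying values were 2 of 50 groups of libraries examined over the 10 enzymes, and chance alone marks about 1 in 20 groups.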

How the results depend on the processing

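Leaving 48 h values unscaled by library size moved the median log2 change of all genes to 0.19 with PNA2 and 0.22 with the siRNA, so changes under it are read relative to that shift. It left 0, 1 and 1 of the 10 enzymes called with PNA2, with the siRNA and between the reagents. Of all genes it called 15.4%, 15.5% and 12.6% (1785 genes between the reagents). Its signs turned for CAD (0.092), UMPS (0.030), TYMS (0.054), SRM (0.15), SMS (0.075) and AMD1 (0.018) with PNA2, for CAD (0.10), UMPS (0.18), CTPS1 (0.075) and SMS (0.11) with the siRNA and for CAD (-0.0080) and SMS (-0.033) between them. Without the set term as well, counts were 0, 1 and 0, against 15.6%, 9.87% and 8.45% of all genes (1395 genes with the siRNA and 1195 between reagents). Signs turned for the same enzymes with PNA2, at the same values, for CAD (0.087), UMPS (0.17), CTPS1 (0.044) and SMS (0.10) with the siRNA and for SMS (-0.030) between them. Dropping the set term alone left 1 enzyme and 1184 genes (8.38%) with the siRNA, and turned SMS between the reagents (-0.017). No filter left 0 enzymes with PNA2, against 5.44% of all genes. Fitting only the 2 groups compared gave 0, 8 and 1 enzymes, against 7.34%, 33.2% and 22.8% of all genes (1010 genes with PNA2 and 4563 with the siRNA). It turned CAD (-0.18) and SMS (-0.17) between the reagents. Aligning the sets on PBS left 0 enzymes with PNA2, against 15.7% of all genes, and gave 3790 genes (26.8%) with the siRNA.

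Unscaled values also moved the split of calls to 2014 higher and 167 lower with PNA2 and 2124 and 74 with the siRNA, where the fit reported gave 1146 and 1138 and 1233 and 1208.

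Scaling by the per-length total was added after the values were seen. It lowered the median log2 change of all genes to -0.20 with PNA2 at 48 h, -0.27 between the reagents and -0.35 at 72 h. With PNA2 at 48 h it called 8 enzymes of the 10, against 34.4% of all genes. It called 4857 genes with PNA2 at 48 h (355 higher and 4502 lower), 5415 between the reagents (504 and 4911, in place of 1702 and 1623) and 6042 at 72 h (255 and 5787, in place of 1448 and 1401), and with the siRNA 1449 higher and 650 lower. Signs turned for DHODH with PNA2 (-0.20), UMPS with the siRNA (0.016), CAD (-0.25), SMS (-0.27) and AMD1 (-0.050) between the reagents, and DHODH (-0.27), TYMS (-0.20), ODC1 (-0.089) and SMS (-0.31) at 72 h. It ended the calls of AMD1 with the siRNA (adjusted p = 0.0855) and of DHODH, ODC1 and SRM between the reagents (adjusted p of 0.0525 to 0.22).

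Set A alone gave 4 enzymes with PNA2 (13.5% of all genes) and 1 between the reagents (22.3%), and turned DHODH with PNA2 (-0.31) and CAD (-0.18) and SMS (-0.16) between the reagents. Set B alone gave 0 (12.6%) and turned CAD (0.19), TYMS (0.072), SRM (0.16), SMS (0.11) and AMD1 (0.10). Quantile normalisation left 2 enzymes at 72 h, against 23.9% of all genes. It turned DHODH (-0.029) and SRM (0.0058) with PNA2 at 48 h, and median-of-ratios scaling turned SMS between the reagents (-0.013). Apart from ODC1 at 72 h, these reversals were of values not called in the fit reported.

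Same-numbered libraries showed little shared deviation (correlations -0.0591 to 0.108). With no differently numbered libraries set beside them, these values cannot decide whether the numbers pair libraries, and the labels state no pairing. With a replicate block, which drops the unnumbered PBS columns, 1, 0 and 1 enzymes and 848, 956 and 1817 genes were called at 48 h in the same order of comparisons. DHODH turned with PNA2 (-0.10), and CAD (-0.011) and SMS (-0.13) turned between the reagents. At 72 h the block ended the call of CTPS1 (adjusted p = 0.0626) and gave one for SRM (adjusted p = 0.0422).

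Leaving out each library gave 0 to 2 enzymes with PNA2 (1691 to 3032 genes) and 0 to 7 with the siRNA (1176 to 4325 genes). It gave 2 to 6 between the reagents (2502 to 3915 genes) and 2 to 5 at 72 h (2086 to 3333 genes). Genes tested were then 14018 to 14119 at 48 h and 11916 to 11934 at 72 h. The 7 enzymes and 4325 genes with the siRNA were reached without PNA2 replicate 2, a library outside that comparison. Log2 changes with PNA2 at 48 h then ran from -0.19 to 0.020 for CAD, -0.093 to 0.21 for DHODH, -0.30 to 0.11 for TYMS, -0.11 to 0.10 for SRM and -0.20 to 0.049 for SMS, and UMPS with the siRNA from -0.080 to 0.0017. Between the reagents they ran from -0.044 to 0.21 for CAD, -0.30 to 0.043 for CTPS1, -0.49 to 0.10 for TYMS and -0.11 to 0.25 for SMS. At 72 h they ran from -0.0093 to 0.15 for DHODH and -0.43 to 0.24 for MYC. The causes were not tested. Reads were recovered for 72 h alone, and how far depth limits each enzyme was not compared.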
